A study of Mus musculus with 16 samples.

Results

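Keratin genes encode the intermediate filament proteins of epithelial cells, and their transcripts were followed across cortical and medullary thymic epithelial cells with and without the thymoproteasome gene Psmb11. The members are the genes of the deposited count table whose symbol is Krt followed by a number alone, which gives 48 of 23420 genes. Krt6a, Krt6b, Krt33a and Krt33b, whose symbols end in a letter, are not members, and neither are 52 genes of keratin-associated proteins. Keratin filaments assemble from pairs of an acidic type I and a basic type II keratin, and 26 of the members are type I and 22 type II. Simple epithelia rely on Krt8 and Krt18, the basal layer of stratified epithelia on Krt5 and Krt14, the upper epidermis on Krt1 and Krt10, and hair follicles and nails on pairs of their own. In the thymus, keratin 8 and keratin 18 are used to stain the cortex, and keratin 5 and keratin 14 to stain the medulla. Medullary cells, above all those rich in MHC class II, also transcribe many genes of other tissues, in part under the regulator Aire, and so display peripheral self-proteins to developing T cells.

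RNA was sequenced from 16 sorted thymus libraries of mice labelled psmb11 +/+ (WT) or psmb11 -/- (KO), all with the strain label C57BL/6-derived BAC. Cortical cells (cTEC) gave 2 libraries per genotype, medullary cells with low MHC class II (mTEClo) 3 per genotype and medullary cells with high MHC class II (mTEChi) 3 per genotype. All were sorted as EpCAM-positive, CD45-negative cells, the cTEC by Ly51 without UEA1 binding and the medullary cells by UEA1 binding without Ly51. Age is given as 6 to 8 weeks in the labels but as 7 days in the extraction protocol, and the sources name 11 thymi or 14 mice, without saying which libraries share animals or pool them. The p-values below therefore measure the spread between libraries, which may be partly technical. Psmb11, the deleted gene, counted 15214 and 12756 in WT cTEC against 157 and 0 in KO cTEC. Its counts were 707, 1220 and 778 in WT mTEClo against 177, 111 and 115 in KO, and 889, 1672 and 598 in WT mTEChi against 74, 87 and 172 in KO.

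Gene counts totalled 64753610 to 146707262 per library, of which keratins took 0.790% to 0.847% in cTEC, 1.27% to 1.48% in mTEClo and 0.699% to 0.816% in mTEChi. Genes without a single count numbered 5757 to 8541 in cTEC, 4625 to 5119 in mTEClo and 2293 to 2703 in mTEChi. Sort markers are given as CPM, the count divided by the scaled library total. The 8 cTEC markers summed to 1851 to 4085 CPM in cTEC and 392 to 1240.1 CPM in the medullary libraries. Singly, Psmb11, Prss16, Ly75, Enpep and Cxcl12 were lower in every WT mTEChi than in every WT cTEC library. Ccl25 overlapped between these groups, and Tbata (484 to 507 against 437 and 328 CPM) and Dll4 were higher in WT mTEChi. The 8 mTEC markers summed to 237 to 719 CPM in cTEC, 880 to 1025 CPM in mTEClo and 3324 to 3811 CPM in mTEChi, with Ccl21a at 0 counts in every library.

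In every library 6 keratins made up most of the keratin RNA of the members, and which of them led differed between the populations. Levels of different genes are compared as RPKM, which scales reads by gene length and library size. Krt5, Krt14, Krt17, Krt7, Krt8 and Krt18 together held 94.5% to 96.7% of the summed keratin RPKM in cTEC and 94.9% to 96.2% in mTEClo, but 79.2% to 81.4% in mTEChi. The sum over all keratins was 5740 to 6947 RPKM in mTEClo, above the 3289 to 3768 RPKM of cTEC and the 3079 to 3729 RPKM of mTEChi, whose ranges overlap. The keratins at 1 RPKM or more numbered 13 and 16 in WT cTEC, 26 and 18 in KO cTEC, 21 to 23 in mTEClo and 40 to 43 in mTEChi. Over all genes of the RPKM table that share was 53.3% to 57.1% in cTEC, 55.1% to 55.7% in mTEClo and 65.3% to 66.5% in mTEChi. No keratin was without a count in any mTEChi library, whereas 3 to 7 were at 0 in mTEClo and 6 to 20 in cTEC.

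**Figure D1:**
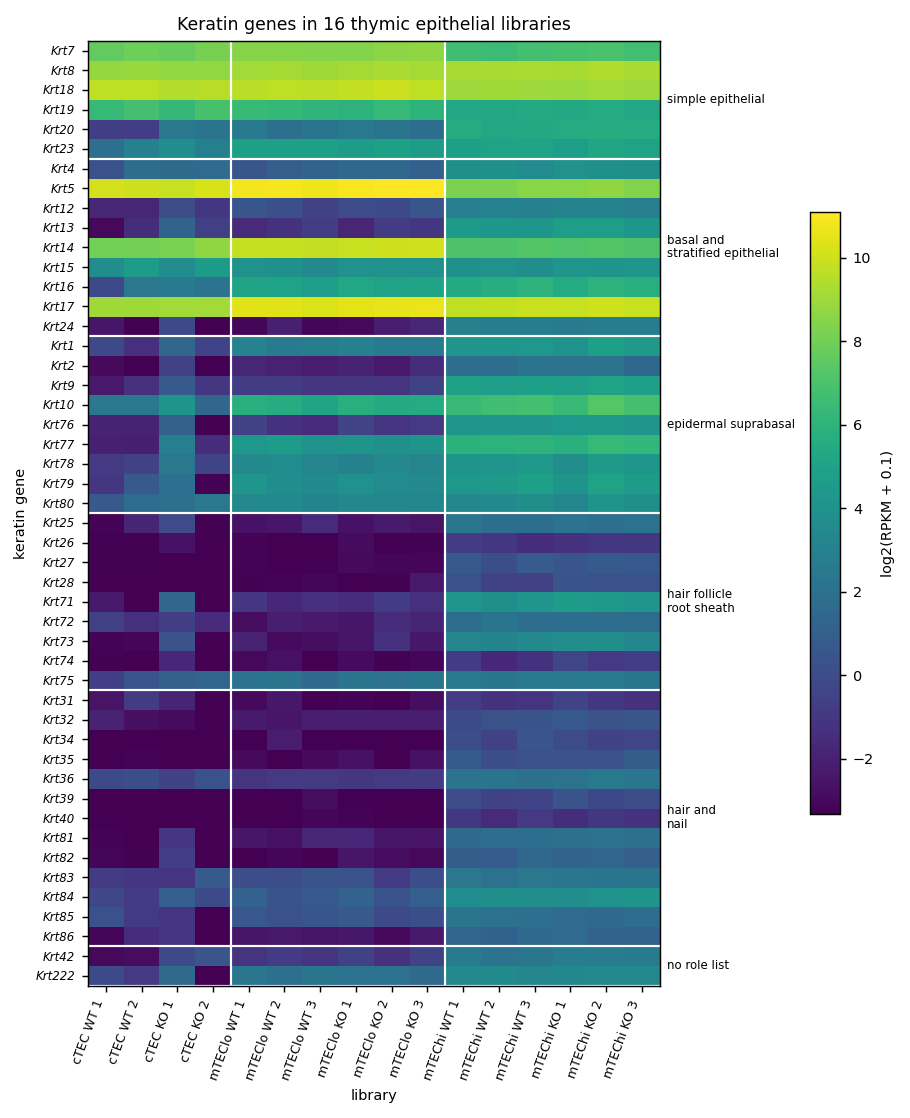
RPKM of the 48 keratin genes (rows, grouped by role) in the 16 libraries (columns), coloured on a log2 scale after adding a small constant. The same few rows are bright in every column, while the suprabasal, root sheath, hair and nail rows are bright in the mTEChi columns, where 40 to 43 keratins reached 1 RPKM.

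Krt5, the type II keratin of basal cells (chr15:101707070-101712891, mm10), was the most abundant keratin of cTEC and mTEClo. Its RPKM was 1833, 1898 and 1710.4 in WT mTEClo and 1980.2, 2177 and 2162 in KO mTEClo, 1081 and 1012 in WT cTEC and 953 and 1184 in KO cTEC. In mTEChi it was 304, 303 and 374 in WT and 365, 408 and 333 in KO, so that every mTEChi library was below every library of the other populations. Its share of the keratin RPKM was 28.6% to 31.4% in cTEC, 29.8% to 31.4% in mTEClo and 9.73% to 11.3% in mTEChi. Krt14, its type I partner (chr11:100203162-100207510), kept the same order, with 902 ± 24.1 RPKM (SD, n = 3) in WT mTEClo, 267 ± 7.85 (n = 2) in WT cTEC and 139 ± 8.92 (n = 3) in WT mTEChi. The 6 groups of Krt14 were separate from their neighbours in this order, except for the overlap of WT and KO mTEChi.

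Krt17, a type I keratin of stratified epithelium and of activated keratinocytes (chr11:100256217-100260989), led in mTEChi. It read 842, 864 and 996 RPKM in WT mTEChi, 1366, 1413 and 1240.3 in WT mTEClo and 529 and 532 in WT cTEC. Unlike Krt5 and Krt14 it was thus lowest in cTEC, where its 4 libraries lay between 529 and 542 RPKM. Krt8, the type II keratin of simple epithelia (chr15:101996711-102004342), had the smallest ratio of highest to lowest group mean among the 10 most abundant keratins: 603 ± 16.8 RPKM in WT mTEChi, 551 ± 19.0 in WT mTEClo and 459 ± 7.80 in WT cTEC. Its type I partner Krt18 (chr15:102028216-102032026) stood at 832 ± 9.35 RPKM in WT cTEC and 805 ± 39.2 in WT mTEClo, which overlap, and at 518 ± 10.8 in WT mTEChi. Krt7 (chr15:101412403-101427806), a type II keratin of ducts and glands, had 348 ± 5.69, 220.3 ± 30.8 and 102 ± 7.81 RPKM in WT mTEClo, cTEC and mTEChi.

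The remaining abundant members fell far below these. Krt19, a small type I keratin of simple epithelia (chr11:100140811-100145919), had 79.8 and 114 RPKM in WT cTEC, 84.9, 77.9 and 67.8 in WT mTEClo and 39.3, 38.3 and 44.1 in WT mTEChi, and cTEC and mTEClo overlapped. Krt10, the type I keratin of the upper epidermis (chr11:99385256-99389364), had 82.6, 103 and 112 RPKM in WT mTEChi, 51.9, 47.9 and 34.3 in WT mTEClo and 5.18 and 5.46 in WT cTEC. The populations did not overlap for Krt10 in WT. Krt77, a suprabasal type II keratin (chr15:101859856-101869618), read 60.4, 62.6 and 67.0 RPKM in WT mTEChi, 15.5 to 24.0 in WT mTEClo and 0.144 and 0.130 in WT cTEC. Krt16 (chr11:100246091-100248902), a type I keratin of stressed and proliferating epithelium, read 44.7, 50.3 and 62.6, 34.4, 32.9 and 25.9, and 0.801 and 5.25 RPKM in the same order, and its counts are uncertain for a reason given below.

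**Figure D2:**
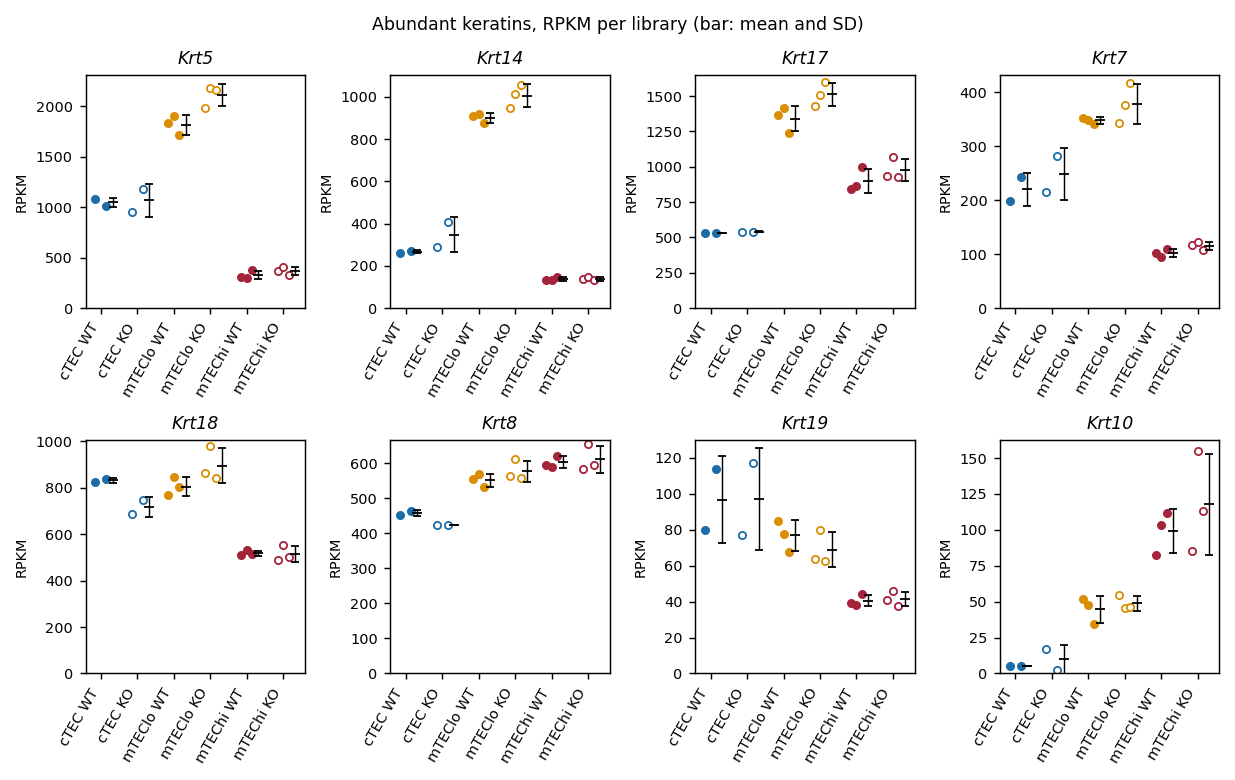
RPKM of 8 abundant keratins in every library, by population (filled points WT, open points KO), with the group mean and SD. Krt5 and Krt14 are lowest in mTEChi, Krt17 is lowest in cTEC, Krt8 lies within a narrow band in all 3 populations and Krt10 is highest in mTEChi.

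Type I and type II keratins pair in the filament, and their RPKM summed over the members were near equal in cTEC alone. Type I genes held 49.4% to 51.0% of the keratin RPKM in cTEC, 53.5% to 53.9% in mTEClo and 59.7% to 60.9% in mTEChi, with no overlap between populations while the genotypes overlapped within each. In RPKM, type I summed to 1844 to 2244 and type II to 1220.5 to 1484 in mTEChi. These are sums of transcript levels and do not measure protein. They leave out Krt6a, Krt6b, Krt33a and Krt33b, which are not members, and the balance with these genes included was not tested.

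**Figure D3:**
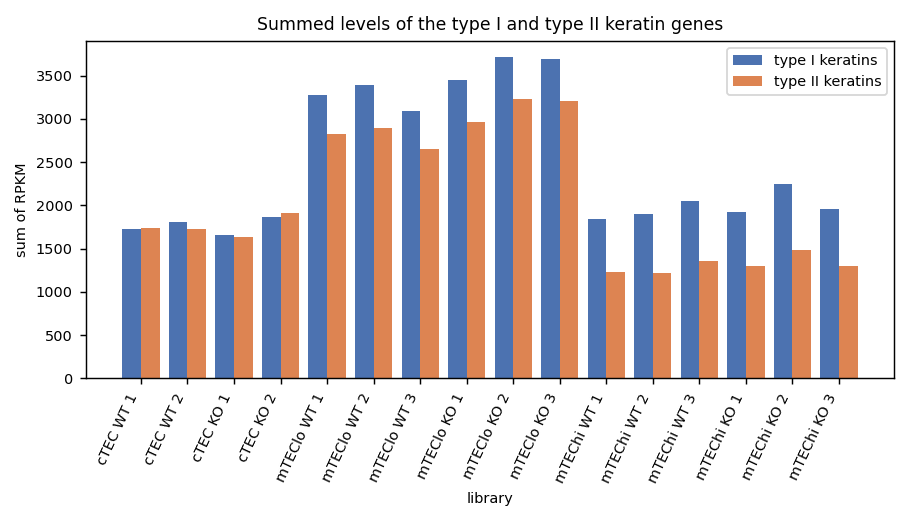
Summed RPKM of the 26 type I and the 22 type II member keratins in each of the 16 libraries (bars from 0), without Krt6a, Krt6b, Krt33a and Krt33b. Both bars are tallest in mTEClo, they are level in cTEC, and the type I bar exceeds the type II bar in every mTEClo and mTEChi library.

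The comparison of the medullary populations asks how keratin transcripts differ between mTEClo and mTEChi. In WT, 43 of the 48 keratins differed, where 80.9% of all tested genes did, so the number called is near the background. By direction, 37 keratins were higher in mTEChi, where 43.0% of all tested genes were, and 6 were lower, where 37.9% of all tested genes were. However, 10 of the 48 passed the filter on low counts through mTEChi alone and could hardly have been lower. Over the 38 keratins that passed it within each population, in an alternative chosen after seeing the data, 27 were higher (36.1% of 16990 genes so restricted) and 6 lower (42.8%), with a median log2 difference of 2.35, against -0.09 over those genes. The median over all 48 keratins was 3.10 and that over all tested genes 0.06. Calls, here and below, are from edgeR's quasi-likelihood F test at an adjusted p of 0.05, adjusted by Benjamini-Hochberg across every gene in the fit, and all folds from here on are log2 differences with their standard error (SE), from counts. In such bulk libraries a different number of cells that carry a transcript cannot be told apart from a different amount of it per cell. By levels, 33 of the 48 keratins had every mTEChi library of either genotype above every mTEClo and cTEC library (32.5% of 20126 genes), 4 were highest in mTEClo (5.56%), Krt19 alone in cTEC (6.31%) and 10 in no population (55.6%). These counts include keratins that passed the filter through mTEChi alone, such as Krt39 and Krt40, which could hardly have been highest elsewhere. They were not restricted to genes that passed within each population. By CPM the separation of Krt19 was a near tie, at 153.3 in KO cTEC 1 against 153.1 in WT mTEClo 1. By RPKM cTEC and mTEClo overlapped for Krt19.

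Of the 6 simple epithelial keratins, 3 were lower in mTEChi, 1 was higher and 2 were not called, with a median of -0.41. Krt7, Krt19 and Krt18 were lower, by -1.92 (SE 0.07), -1.07 (SE 0.09) and -0.78 (SE 0.06). Krt8 was not called at -0.02 (SE 0.06), and neither was Krt23, at -0.04 (SE 0.06). Krt20, the intestinal and urothelial type I keratin (chr11:99428403-99438153), went the other way with 109, 94.6 and 97.3 CPM in WT mTEChi against 14.4, 10.1 and 12.2 in WT mTEClo. The groups were far apart, a log2 difference of 3.02 (SE 0.12).

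Of 9 basal and stratified keratins measured, 5 were higher in mTEChi and 3 lower, with a median of 0.62, so the group did not move one way. The 3 that were lower are its most abundant members. Krt14 had 259.9, 274 and 300.4 CPM in WT mTEChi against 2016, 2023 and 1958 in WT mTEClo, a log2 difference of -2.86 (SE 0.07) with an adjusted p of 2.01e-11 in edgeR's test. Krt5 had 794, 810.2 and 997 against 5327, 5499 and 5053 CPM, a log2 difference of -2.63 (SE 0.10), and Krt17 differed by -0.72 (SE 0.08). Both Krt5 and Krt14 separated the populations by more than any spread within them. Of those that were higher, Krt13, the type I keratin of oral and oesophageal epithelium (chr11:100117596-100121495), had 34.4, 27.8 and 28.5 CPM against 0.418, 0.515 and 0.886, a log2 difference of 5.63 (SE 0.20). Its mucosal type II partner Krt4 (chr15:101918535-101924735) differed by 2.73 (SE 0.16), from 3.82, 5.64 and 6.65 CPM in WT mTEClo to 36.2, 39.4 and 32.2 in WT mTEChi. Krt12, the keratin of the cornea (chr11:99415664-99422259), differed by 2.95 (SE 0.22), and Krt24 by 6.63 (SE 0.41). Krt16 differed by 0.62 (SE 0.13), and Krt15, a basal keratin of hair follicle stem cells, was not called at -0.09 (SE 0.13).

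All but 1 of 9 suprabasal epidermal keratins were higher in mTEChi, with a median of 1.32. Krt9, the type I keratin of palm and sole skin (chr11:100186781-100193246), had the smallest p of all keratins. It read 93.6, 79.9 and 86.3 CPM in WT mTEChi against 1.68, 1.50 and 1.25 in WT mTEClo, a log2 difference of 5.86 (SE 0.12) with an adjusted p of 5.78e-12 by edgeR. No mTEChi library came within an order of magnitude of an mTEClo library. Krt76, of the hard palate (chr15:101884351-101892920), had 54.2, 51.6 and 51.5 against 1.88, 0.958 and 0.754 CPM, a log2 difference of 5.44 (SE 0.23). The classical pair of the upper epidermis moved less: Krt1 by 1.32 (SE 0.11) and Krt10 by 1.00 (SE 0.15). Krt77 differed by 1.51 (SE 0.13) and Krt78 (chr15:101946004-101954287) by 0.60 (SE 0.10), from 51.0, 57.6 and 45.9 CPM to 71.6, 75.8 and 89.8. Krt80 was not called, at 0.06 (SE 0.13). In the fit shared by all 16 libraries 7 of the 43 did not pass, among them the modest differences of Krt10, Krt16, Krt78 and Krt222, with adjusted p of 0.0546, 0.173, 0.248 and 0.234. The summed markers of keratinocyte-like medullary cells that are not keratins overlapped between the populations. They read 900 to 995 CPM in WT mTEClo and 922 to 1063 CPM in WT mTEChi. Taken singly, Krtdap, Spink5 and Dsg1a did not overlap between these groups, and the other markers did. Of these 9, Dsg1a was higher in WT mTEChi by 0.68, and Krtdap, Sbsn and Spink5 were lower, at -0.91, -0.47 and -0.32.

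Of 9 root sheath keratins, which line the growing hair, 8 were higher in mTEChi and none lower, but 4 of the 9 passed the filter through mTEChi alone. Of the 5 that passed within each population, 4 were higher. Krt71, of the inner root sheath (chr15:101733949-101743097), had 47.5, 37.5 and 47.8 CPM in WT mTEChi against 0.857, 0.505 and 0.558 in WT mTEClo. Its log2 difference was 6.10 (SE 0.18), and that of its neighbour Krt73 (chr15:101793308-101802332), at 24.1, 22.8 and 28.3 against 0.451, 0.103 and 0.131 CPM, was 6.77 (SE 0.31). The exception was Krt75, the companion layer keratin, with 21.4, 19.1 and 21.7 CPM against 18.7, 19.8 and 13.3, where the populations overlapped. All 13 hair and nail keratins measured were higher in mTEChi, from low levels, but 6 of them passed the filter through mTEChi alone. The other 7, all higher, had a median of 3.10. The most abundant was Krt84 (chr15:101525026-101532820), a type II keratin of hard keratin structures of the tongue, with 40.1, 44.5 and 42.8 CPM against 7.52, 4.20 and 5.03 and a log2 difference of 2.91 (SE 0.17). The least was Krt40, with 138 counts over the 3 WT mTEChi libraries and 0 over the WT mTEClo libraries, at least 48.7-fold higher if the empty group is given 3 counts, a bound that covers counting error only. Together the 9 root sheath keratins summed to 3.71 to 5.13 RPKM in WT mTEClo and 38.5 to 45.5 RPKM in WT mTEChi, and the 13 hair and nail keratins to 4.14 to 5.29 and 38.1 to 40.7 RPKM. Krt42 and Krt222, in none of these groups, were higher by 3.49 (SE 0.20) and 1.12 (SE 0.11).

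Some of these genes share sequence with a near copy, and their counts are uncertain to that extent. Of the stretches of 50 bases in the transcript of each member, 43.5% for Krt81, 43.3% for Krt86, 37.6% for Krt16, 33.1% for Krt34, 28.1% for Krt31, 26.9% for Krt8, 23.2% for Krt83, 14.4% for Krt14, 11.1% for Krt27, 10.9% for Krt25 and 8.52% for Krt5 also occur in another gene's transcript. These are the 11 of 46 members with an annotated transcript that shared 5% or more. The mTEChi libraries also differ from mTEClo in other ways that move with these results. They had fewer genes without counts, and their 7 markers of dendritic cells and macrophages, all 7 higher in WT, summed to 465 to 487 CPM against 31.4 to 56.6 CPM in mTEClo. Their 4 B cell markers, all 4 higher, summed to 29.2 to 30.8 against 9.50 to 15.5 CPM. The 3 erythroid markers in the table, Hba-a1 at 0, summed to 16.2 to 20.3 against 1.11 to 1.68 CPM. No dendritic, macrophage or B cell marker was at 0 in every library of a medullary group. The 5 tuft cell markers, all 5 lower in WT mTEChi, summed to 273 to 402 against 1261 to 1936 CPM. Of 8 thymocyte markers 5 were higher and none lower, summing to 72.2 to 117 against 34.0 to 60.2 CPM. The 5 markers of fibroblasts and pericytes overlapped in their sum, 204 to 229 against 181 to 236 CPM, with 3 higher and 2 lower. Of these, Col1a1 read 77.5 to 103 against 6.21 to 7.64 CPM and Pdgfrb 62.1 to 63.3 against 5.18 to 6.51 CPM. The part of these cells in the keratin differences was not tested.

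The keratin genes stand in clusters on 2 chromosomes, and most genes of each were called higher in WT mTEChi. Over all tested genes 43.0% were higher and 37.9% lower. The cluster counts include the 10 keratins that passed the filter through mTEChi alone and could hardly have been lower. On chromosome 11, 25 type I genes lie between 99233098 and 100269871 (mm10), of which 20 were higher and 3 lower in WT mTEChi. On chromosome 15, the 22 type II genes and Krt18 lie between 101349571 and 102032026, of which 17 were higher and 3 lower. Krt71, Krt73 and Krt76, which were higher, lie in the same cluster as Krt5 and Krt7, which were lower.

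The bases just upstream of the annotated starts are shown for 6 keratins called between WT mTEChi and WT mTEClo. Of these, Krt71, Krt73, Krt76 and Krt9 were higher in mTEChi, and Krt5 and Krt7 were lower. The sequences are 100 bases upstream of the RefSeq start on GRCm38.p6, 5′ to 3′ on the strand of the gene, with capitals for TATAAA or ATAAAA, each searched on both strands, which overlap where TATAAAA occurs. Krt71 is from chr15:101743098-101743197, Krt73 from chr15:101802361-101802460, Krt76 from chr15:101892921-101893020 and Krt9 from chr11:100193247-100193346, all on the minus strand. Krt5 is from chr15:101712906-101713005 on the minus strand and Krt7 from chr15:101412303-101412402 on the plus strand.
Krt71: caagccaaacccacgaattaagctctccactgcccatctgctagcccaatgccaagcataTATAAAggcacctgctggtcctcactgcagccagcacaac
Krt73: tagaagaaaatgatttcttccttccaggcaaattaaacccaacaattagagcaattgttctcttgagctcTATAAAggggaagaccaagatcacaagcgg
Krt76: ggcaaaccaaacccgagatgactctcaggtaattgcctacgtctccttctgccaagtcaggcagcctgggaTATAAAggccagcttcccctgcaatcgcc
Krt9: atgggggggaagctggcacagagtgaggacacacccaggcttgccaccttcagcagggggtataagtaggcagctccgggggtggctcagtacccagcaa
Krt5: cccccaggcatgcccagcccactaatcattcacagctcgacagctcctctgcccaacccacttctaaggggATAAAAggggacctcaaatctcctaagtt
Krt7: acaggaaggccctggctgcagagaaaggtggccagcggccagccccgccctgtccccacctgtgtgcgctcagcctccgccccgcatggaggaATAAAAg

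In the 60 bases before the start, TATAAA was found in 14 of 35 start regions of the 34 keratins that RefSeq's table holds (40.0%), against 3.92% of 32851 start regions of all genes. ATAAAA was found in 15 (42.9%, against 4.68%), and either of them in 22 (62.9%, against 6.96%). Among the regions of keratins higher in WT mTEChi, 14 of 28 held TATAAA, against 0 of 4 of those lower and 0 of 3 of those not called. ATAAAA was in 11 of 28, 2 of 4 and 2 of 3 in the same order, and either of them in 18 of 28, 2 of 4 and 2 of 3. Of the 4 lower keratins, the 2 with ATAAAA are Krt5 and Krt7, printed above. Krt14 and Krt18, which are not printed, held neither. The motifs, the window and the printed genes were chosen after the sequences and the values had been seen, so these counts are a description, and a match is not a binding site.

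In KO mice the same medullary contrast gave the same keratins. Of 48, 43 differed between KO mTEChi and KO mTEClo (78.4% of all genes), 37 higher (42.2%) and 6 lower (36.2%), and in these fits each list was the WT list without exception, 100% of either. The repeat of WT calls in KO was not counted over all genes, so this overlap has no background beside it. Of the 48, 10 passed the filter through mTEChi alone and could hardly have been lower in either genotype. The WT and KO contrasts share no library. In the fit shared by all 16 libraries, 36 were called in WT and 38 in KO, with 36 in both and Krt10 and Krt31 in KO alone, a difference that was not tested there. Krt16, Krt78 and Krt222 did not pass there in KO either, with adjusted p of 0.240, 0.119 and 0.158 by edgeR. Over the 38 keratins that passed the filter within each population, 27 were higher in KO mTEChi (35.1% of genes so restricted) and 6 lower (41.1%). Their median was 2.20, against -0.09 over those genes. The median over all 48 was 3.24, and 0.08 over all genes. Krt14 had 264, 291 and 267 CPM in KO mTEChi against 2027, 2164 and 2317 in KO mTEClo, a log2 difference of -2.99 (SE 0.10). Krt9 had 76.2, 94.6 and 88.6 against 1.17, 1.13 and 2.04 CPM, a log2 difference of 5.89 (SE 0.21). Krt76, Krt71 and Krt5 differed by 5.24 (SE 0.20), 6.11 (SE 0.24) and -2.66 (SE 0.11). The interaction, which tests whether the medullary contrast differs between genotypes, was called for 0 of 48 keratins (0.0101% of all genes) by edgeR, with 4 at an unadjusted p under 0.05, and for 0 by DESeq2 (0.0686%). The interaction was 0.03 (SE 0.24) for Krt9, -0.14 (SE 0.10) for Krt14 and -0.04 (SE 0.14) for Krt5.

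**Figure D4:**
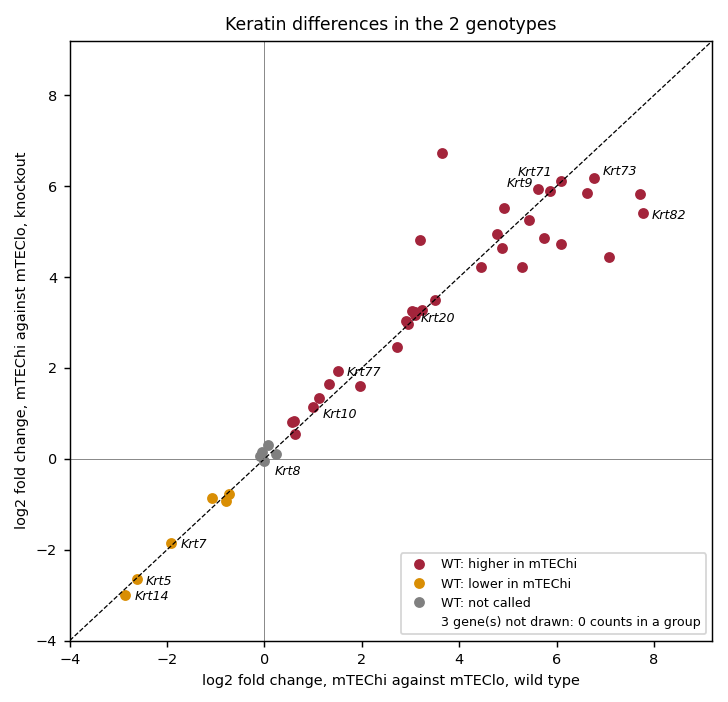
Log2 difference of mTEChi against mTEClo for 45 keratins in WT (x axis) and in KO (y axis), coloured by the WT call, with a dashed line of equality; Krt34, Krt39 and Krt40 are left out because a group had 0 counts. Points follow the line from Krt14 (-2.86 and -2.99) to Krt71 (6.10 and 6.11), and every keratin called in WT has the same sign in KO.

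Genes that act with keratins were counted by list, beside 43.0% of all tested genes higher and 37.9% lower in WT mTEChi. Of 19 genes of desmosomes, hemidesmosomes and cytolinkers, which anchor keratin filaments to the membrane, 15 were lower and 1 higher in WT mTEChi, with a median of -0.96. The plakin Dst differed by -1.77 (SE 0.06), epiplakin Eppk1 by -2.41 (SE 0.08), desmocollin Dsc3 by -2.02 (SE 0.07) and the integrin Itga6 by -1.31 (SE 0.06). The one that was higher was Col17a1, the hemidesmosomal collagen, at 0.90 (SE 0.10), which was named after its value was seen. Of 13 intermediate filament genes outside the keratins, 10 were higher and 3 lower. The neuronal filament genes Prph, Nefh and Nefm differed by 5.61 (SE 0.14), 4.12 (SE 0.11) and 3.80 (SE 0.19), whereas Synm, of muscle filaments, differed by -2.90 (SE 0.10). Of 12 epithelial transcription factors known to act on keratin genes, 5 were higher and 7 lower. Trp63, the p63 gene that drives Krt5 and Krt14 in stratified epithelia, had a mean of 139 CPM in WT mTEChi against 583 CPM in WT mTEClo, a log2 difference of -2.08 (SE 0.06). Grhl2 and Klf4 differed by -1.53 (SE 0.05) and -1.55 (SE 0.09), and Foxn1, the master regulator of thymic epithelium, by 1.03 (SE 0.06). In KO mice, where 42.2% of all tested genes were higher and 36.2% lower, the desmosomal list had 13 lower and 1 higher, the filament list 9 higher and 3 lower, and the regulators 5 higher and 7 lower.

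Cortical cells were compared with each medullary population within WT; both comparisons use the same 2 WT cTEC libraries. Against WT mTEChi, 45 of 48 keratins differed (74.3% of all genes), 5 higher in cTEC (30.8%) and 40 lower (43.5%). Of the 48, 13 passed the filter through mTEChi alone and could hardly have been higher in cTEC. Over the 35 that passed within each population, 5 were higher (36.9% of genes so restricted) and 27 lower (34.7%), with a median of -3.97 against 0.03 over those genes. Over all 48 the median was -4.99, or -4.95 with the 6 keratins without cTEC counts at their lower bound, and -0.24 over all genes. The 5 that were higher in cTEC were Krt5, Krt19, Krt7, Krt14 and Krt18, by 1.83 (SE 0.12), 1.39 (SE 0.13), 1.24 (SE 0.09), 1.10 (SE 0.08) and 0.82 (SE 0.07). All 9 suprabasal and all 9 root sheath keratins were lower in cTEC, as were 11 of 13 hair and nail keratins. Of these lists 1, 5 and 7 members passed the filter through mTEChi alone. Among the members that passed within each population, 8 of 8, 4 of 4 and 4 of 6 were lower in cTEC. Krt77 had 0.366 and 0.333 CPM in WT cTEC and 119.6, 126 and 135 in WT mTEChi, a log2 difference of -8.56 (SE 0.13). Krt76, at 0.549 and 0.505 CPM in WT cTEC, differed by -6.70 (SE 0.12), and Krt73, at 0.0343 and 0.0345 CPM, by -9.52 (SE 0.26). Krt20, at 1.43 and 1.37 CPM, and Krt78, at 2.15 and 2.96 CPM, differed by -6.23 (SE 0.12) and -5.02 (SE 0.18). For Krt34 and Krt28, with 0 counts in WT cTEC, WT mTEChi was at least 115-fold and 89.8-fold higher by the same bound. The call of Krt8, at -0.24 (SE 0.07), did not pass in 5 of the alternative fits. The keratinocyte-like markers, all 9 lower in WT cTEC, summed to 146 and 218 CPM there and to 922 to 1063 CPM in WT mTEChi. Of the 7 dendritic cell and macrophage markers 5 were lower, summing to 25.0 and 58.1 against 465 to 485 CPM, with Siglech at 0 in WT cTEC. The 4 B cell markers, all 4 lower, summed to 2.13 and 4.27 against 29.8 to 30.8 CPM. The part of these cells in the keratin differences was not tested. In simulated counts without any difference, the fit of WT cTEC against WT mTEChi still called some unchanged genes.

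Against WT mTEClo, 24 of 39 keratins tested differed (44.9% of all genes), 3 higher in cTEC (20.9%) and 21 lower (24.1%). Of the 39, 5 did not pass the filter within each population. Over the 34 that did, 3 were higher and 20 lower, with a median of -1.57 against 0.004 over the genes so restricted. Of the basal keratins, Krt14 differed by -1.70 (SE 0.07), Krt17 by -1.27 (SE 0.08) and Krt5 by -0.73 (SE 0.08). The simple pair differed little: Krt8 by -0.19 (SE 0.07), with an adjusted p of 0.0442 by edgeR that missed the threshold in 7 of the alternative fits, and Krt18, not called, by 0.10 (SE 0.07). Of 9 suprabasal keratins 6 were lower in cTEC and none higher. Krt77, at 0.366 and 0.333 CPM in WT cTEC against 45.0, 52.5 and 34.4 in WT mTEClo, differed by -6.98 (SE 0.26), Krt78 by -4.34 (SE 0.18) and Krt10 by -3.08 (SE 0.18). The first 2 show no overlap at any level: the highest WT cTEC library had 0.366 CPM of Krt77 and 2.96 CPM of Krt78. Krt20 differed by -3.14 (SE 0.22), and Krt222 (chr11:99233098-99244067), a keratin-related gene, at 3.17 and 1.69 against 16.5, 13.0 and 16.1 CPM, by -2.66 (SE 0.28). The 3 higher in cTEC were Krt72, Krt36 and Krt19, by 2.48 (SE 0.68), 1.25 (SE 0.37) and 0.39 (SE 0.13), and each lost its call in several fits. Krt19 did not pass in 6 of the alternative fits, among them that without WT cTEC 2 (0.15). Krt36 did not pass with the replicate block (adjusted p = 0.161) or without WT mTEClo 1, 2 or 3 (0.109, 0.0880 and 0.0603 by edgeR). Krt72 did not pass with the block (0.162) or without WT mTEClo 1 or 3 (0.0734 and 0.0530). The number higher was 0 with the block and without WT mTEClo 1 or 3, and 6 without WT cTEC 1. In WT cTEC the keratinocyte-like markers summed to 146 and 218 CPM, against 900 to 995 CPM in WT mTEClo, with all 9 lower, and none was at 0 in a whole group. The 5 markers of fibroblasts and pericytes summed to 844 and 991 CPM in WT cTEC against 181 to 236 CPM in WT mTEClo, with 3 higher. The part of these cells in the keratin differences was not tested. Of the 19 desmosomal genes, 12 were higher and 4 lower in WT cTEC than in WT mTEChi, and 3 higher and 6 lower than in WT mTEClo.

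In KO mice fewer keratins were called between cTEC and the medullary populations, and the 2 KO cTEC libraries differed from each other. Against KO mTEChi, 28 of 48 keratins differed (46.7% of all genes), 5 higher in cTEC (20.7%) and 23 lower (26.0%). All 5 and all 23 were on the WT lists, of which they are 100% and 57.5%. Overlaps with the WT lists, here and against mTEClo below, were not counted over all genes. Krt4, Krt20, Krt16, Krt12 and Krt84 differed by -2.11 (SE 0.13), -3.11 (SE 0.20), -3.14 (SE 0.30), -3.36 (SE 0.45) and -3.33 (SE 0.52). Against KO mTEClo, 6 of 41 keratins tested differed (6.19% of all genes), all 6 lower in cTEC (2.87%): Krt17, Krt16, Krt14, Krt5, Krt80 and Krt75, or 28.6% of the WT list. Krt16 had 14.1 and 9.27 CPM in KO cTEC against 74.9, 59.8 and 68.5 in KO mTEClo, a log2 difference of -2.54 (SE 0.23). These counts rest on single libraries: without KO cTEC 1 or KO cTEC 2 they were 48 and 44 against mTEChi (16074 of 19955 and 14419 of 20039 genes in all), and 29 and 23 against mTEClo (55.5% and 23.3% of all genes). Without KO mTEClo 1, 2 or 3, 1, 2 and 0 keratins were called against mTEClo (0.295%, 0.672% and 0.0177% of all genes). KO cTEC 1 had 30.4% of its reads in no gene, against 13.7% to 23.7% in the other 15 libraries, and the part of this in the keratin values was not tested. Of the 48 keratins tested against KO mTEChi, 13 passed the filter through KO mTEChi alone. Of the 41 tested against KO mTEClo, 7 did not pass within each population, and the 6 called are among the 34 that did. The fit of KO cTEC against KO mTEChi called many unchanged genes in simulated counts without any difference.

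Loss of Psmb11 was compared in each population, to ask whether it alters keratin transcripts. In cTEC, 0 of 35 keratins tested were called (0.0% of all genes) by edgeR, with 5 at an unadjusted p under 0.05, where 2104 of 16423 genes were. Psmb11 itself, far lower in KO cTEC by counts, was not called either, so this fit can miss a large difference. DESeq2 called 3 keratins (4.65% of all genes), voom with a weight per library 1 (1.1%) and the fit shared by all 16 libraries 20 (23.4%). That shared fit gives every group the same spread, and in an earlier simulation without any effect such a fit called many genes in cTEC. The median log2 difference was 1.02 over the keratins and 0.01 over all genes. It includes keratins that passed the filter through KO cTEC alone, such as Krt42, which could hardly have been lower. By CPM in all 4 libraries, 12 keratins had both KO libraries above both WT libraries (17.2% of all genes) and 3 had both below (20.9%).

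Krt20 was the clearest of them. It had 1.43 and 1.37 CPM in WT cTEC and 15.3 and 11.5 in KO cTEC, so both KO libraries were far above the WT ones, beside 9.29 to 14.4 CPM in mTEClo. The log2 difference was 3.27 (SE 0.50) with an adjusted p of 0.0855 by edgeR, 0.0340 by voom with a weight per library and 3.06e-07 by DESeq2, and over all alternatives adjusted p ran from 3.06e-07 to 0.129. The difference was 3.04 without KO cTEC 1 and 3.48 without KO cTEC 2. Such a fit leaves 1 KO library, with no spread of its own, so only its size is given here. With RLE size factors in edgeR, Krt20 did not pass. Krt42, a type I keratin (chr11:100262882-100269871), had 0.0572 and 0.0804 CPM in WT and 1.73 and 3.38 in KO, a log2 difference of 5.18 (SE 1.75) with an adjusted p of 0.305 by edgeR. Its counts in WT cTEC were 5 and 7, so it passed the filter through KO cTEC alone. Krt42 passed by DESeq2 (adjusted p = 0.00265) and in edgeR's shared fit (1.51e-05). It did not pass without the filter, with the replicate block or by voom with a weight per library. Without KO cTEC 1 its log2 difference was 5.58. Krt77 had 0.366 and 0.333 CPM in WT and 18.1 and 0.584 in KO, a log2 difference of 4.76 (SE 1.52) with an adjusted p of 0.289 by edgeR. Krt77 passed by DESeq2 (adjusted p = 0.00520) and in edgeR's shared fit (0.00522), but not without the filter, with the replicate block or by voom. The difference rests on KO cTEC 1, without which it was 0.73, and it was 5.72 without KO cTEC 2. The same library was high for further suprabasal and root sheath keratins: Krt78 had 26.5 and 3.17 CPM in the KO libraries, Krt71 7.87 and 0, Krt76 6.73 and 0 and Krt73 3.70 and 0. KO cTEC 2 had 0 counts for 20 keratins and KO cTEC 1 for 6, with 67810047 and 74148029 gene counts in all. Reads in no gene were 30.4% in KO cTEC 1 and 19.9% in KO cTEC 2.

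The basal and simple keratins of cTEC did not pass either. Krt14 had 624 and 619 CPM in WT and 699 and 911 in KO, a log2 difference of 0.38 (SE 0.15), with both KO libraries above both WT ones. Krt5 stood at 0.02 (SE 0.12), Krt17 at 0.05 (SE 0.12), Krt8 at -0.12 (SE 0.12) and Krt18 at -0.21 (SE 0.11). Summed markers of medullary and other cells also differed between the cTEC genotypes, and 0 of each list passed the test. The 8 mTEC markers, Ccl21a at 0, summed to 719 and 421 CPM in KO cTEC 1 and 2 and to 237 and 265 CPM in WT. The 9 keratinocyte-like markers summed to 393 and 305 against 146 and 218 CPM, the 5 tuft cell markers to 1028 and 709 against 403 and 353 CPM, and the 8 cTEC markers to 1851 and 2951 against 4085 and 3522 CPM. The 4 B cell markers summed to 11.8 and 13.2 against 2.13 and 4.27 CPM, and the 7 dendritic cell and macrophage markers to 97.5 and 64.2 against 25.0 and 58.1 CPM, with Siglech at 0 in WT cTEC. Whether these cells or transcripts take part in the keratin differences was not tested.

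**Figure D5:**
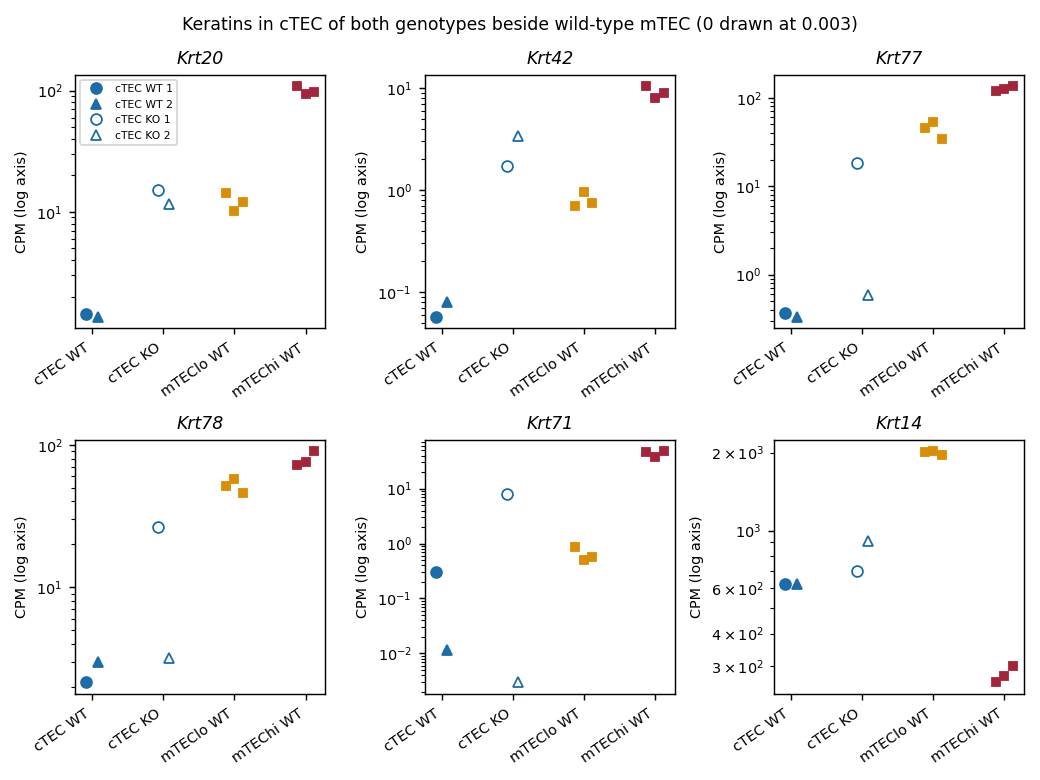
CPM (log axis) of Krt20, Krt42, Krt77, Krt78, Krt71 and Krt14 in each WT and KO cTEC library, beside WT mTEClo and WT mTEChi. Both KO libraries are above WT for Krt20 and Krt42, while for Krt77, Krt78 and Krt71 KO cTEC 1 stands apart, and KO cTEC 2 is just above WT for Krt77 and Krt78 and at 0 for Krt71.

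The effect of genotype in cTEC was also tested against its effect in the medullary populations. It was larger than in mTEClo for 2 of 42 keratins tested (4.68% of all genes were called, 3.41% in this direction) and larger than in mTEChi for 3 of 48 (5.35% and 3.56%), in either case a share near the background. The difference between effects was 3.35 (SE 0.36) for Krt20 against mTEClo (adjusted p = 0.00201 by edgeR) and 3.12 (SE 0.18) against mTEChi (adjusted p = 1.22e-04). For Krt42 it was 4.89 (SE 0.96) and 4.87 (SE 0.51), and for Krt12 against mTEChi 1.83 (SE 0.41). Krt12 read 0.458 and 0.448 CPM in WT cTEC and 2.24 and 1.12 in KO cTEC. Krt20 passed in every alternative fit of both differences. Krt42 against mTEClo did not pass with the replicate block (adjusted p = 0.0847) or without WT cTEC 1, WT cTEC 2 or any 1 mTEClo library, by edgeR with adjusted p up to 0.0761. Krt12 did not pass without the filter, with the block (adjusted p = 0.124), or without WT cTEC 1, WT cTEC 2 or any 1 mTEChi library, with adjusted p of 0.0886 to 0.119 by edgeR. These fits pool the spread of the uneven cTEC libraries with that of the even medullary ones.

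In mTEClo and mTEChi no keratin passed between genotypes. In mTEClo, 0 of 38 keratins tested were called (0.00586% of all genes, Psmb11 itself) by edgeR and 0 by DESeq2 (1.55%), with 3 at an unadjusted p under 0.05 and a median of 0.08. Krt78 had 36.0, 49.2 and 42.9 CPM in KO against 51.0, 57.6 and 45.9 in WT, a log2 difference of -0.28 (SE 0.12) with an adjusted p of 0.360 by edgeR. Krt77 stood at -0.30 (SE 0.13) and Krt5 at 0.17 (SE 0.07). Krt5 was nevertheless higher in every KO than in every WT mTEClo library, one of 4 such keratins (9.63% of all genes), and 0 were lower in every KO library (7.39%). In mTEChi, 0 of 48 keratins were called (0.0051% of all genes, Psmb11 itself) by edgeR and 0 by DESeq2 (0.0275%), with 5 at an unadjusted p under 0.05 and a median of 0.07. Krt15 (chr11:100131759-100135949) had 37.1, 35.8 and 38.8 CPM in KO against 30.5, 33.6 and 28.8 in WT, a log2 difference of 0.25 (SE 0.08). Krt71 and Krt73 stood at 0.29 (SE 0.10) and 0.31 (SE 0.11), and all 3 had an adjusted p of 0.999 by edgeR. Every KO library was above every WT library for 3 keratins (4.95%), namely Krt15, Krt42 and Krt81, and below for Krt85 (4.09%). The partner, filament and regulator lists had 0 members called between genotypes in each population.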

How the data were processed

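RNA-seq counts per gene symbol were deposited by the authors as raw whole-number counts for 16 mouse libraries, made with an unstranded TruSeq RNA kit and read on a HiSeq2000, per the labels' protocols. The authors also deposited RPKM for 23063 genes with mm10 coordinates. CASAVA 1.8.2, HTSeq 0.5.4p1 and mm10 are named in the submitters' processing notes; the aligner and annotation are not given in the sources used here. Reads in no gene were 30.4% in KO cTEC 1 and 13.7% to 23.7% in the others, reads in several genes 0.541% to 0.887%, and both stayed out of totals.

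Each comparison was fitted to the libraries compared alone, with edgeR 4.0.16 in R 4.3.3 (TMM scaling, filterByExpr, quasi-likelihood F test, Benjamini-Hochberg over all genes, threshold 0.05). CPM are counts over TMM-scaled totals, and SE came from the F statistic. Scripts were tested on simulated counts. Alternatives were RLE size factors, no filter, a replicate block, DESeq2 1.42.0, a fit of all 16 libraries, voom (limma 3.58.1) and leaving out each library (80 fits). A count restricted to genes that pass the filter within each population was added after seeing the data. That filter took the WT and KO libraries of a population together.

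Members and gene lists were chosen with earlier results of these data known. Genes named are the 10 highest by RPKM, the 3 with the smallest p per genotype comparison, and the 5 with the smallest p per population comparison among those called with a log2 difference of at least 2, groups that do not overlap and a mean of at least 5 CPM, with up to 4 more per list. Groups at 0 were set to a floor of 3 counts over the group. Counts and RPKM were compared: of 510 keratin values with at least 100 counts, 8 had RPKM per count more than 1.25-fold off, and 8 of 768 values had RPKM above 0 without a count. Start sequences came from RefSeq (GRCm38.p6), which held 34 of the 48 members.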

Additional observations from a re-analysis of the deposited data

Results flagged for a closer look

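The effect of the Psmb11 genotype in cTEC differed from its effect in a medullary population, by edgeR's test of the interaction, in 5 cases. For Krt20 the difference between effects was 3.35 (log2) against mTEClo and 3.12 against mTEChi, with adjusted p of 0.00201 and 1.22e-04, and both KO cTEC libraries were above both WT ones. For Krt42 it was 4.89 and 4.87, with adjusted p of 0.0213 and 0.00159 by edgeR, on WT cTEC levels of 0.0572 and 0.0804 CPM. For Krt12 it was 1.83 against mTEChi, with an adjusted p of 0.0393 by edgeR, and 2.24 and 1.12 CPM in KO cTEC against 0.458 and 0.448 in WT. In all 5 cases the genotype effect in the medullary population lay between -0.09 and 0.30, and neither it nor the cTEC effect on its own passed. Over all genes 4.68% were called against mTEClo and 5.35% against mTEChi. Krt42 against mTEClo and Krt12 each lost the call with the replicate block and in leave-one-out fits, and Krt12 also without the filter.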

How the results depend on the processing

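Of 1193 alternative values for called or named keratins none changed direction, 1115 kept their side of the threshold, 13 gained and 65 lost significance. RLE size factors moved no count of calls by over 1 keratin. DESeq2's median over all genes was 0.26 in WT mTEChi against WT mTEClo, where edgeR's was 0.06. In cTEC KO against WT the count of keratins called was 1 without the filter, 3 by DESeq2, 20 in the fit of 16 libraries and 1 by voom, and 0 to 8 with a library left out, 7 without KO 1 (4 higher and 3 lower, beside 20.9% of all genes called) and 8, all higher, without KO 2 (6.14%). Without KO 1, 21 keratins were above 0 and 15 below, against 28 and 7 with all libraries. For KO cTEC against KO mTEClo it was 11 by DESeq2 and 19 in the shared fit, and 0 to 29 with a library left out; against KO mTEChi, where 28 were called, 21 to 48 with a library left out. The difference of effects between cTEC and mTEClo was called for 5 keratins by DESeq2 and 8 in the shared fit, and for 1 to 18 with a library left out: 1 without WT cTEC 1 or any mTEClo library, 4 without WT cTEC 2, 10 without KO cTEC 1 (5 higher and 5 lower, 35.8% of all genes) and 18, all higher, without KO cTEC 2 (16.9%). Between cTEC and mTEChi it was 12 and 8, and 2 to 22 with a library left out: 6 without WT cTEC 2, 13 without KO cTEC 1 (7 higher and 6 lower, 34.2%) and 22, all higher, without KO cTEC 2 (21.3%). The causes were not tested. An arm left with 1 library is assumed to vary like the others. In the medullary contrasts all 43 calls remained in the same direction with any library left out, with up to 2 more (43 to 45 called), and 36 (WT) and 38 (KO) of them in the shared fit.

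Deviations from the group means correlated at 0.0617 at most between same-numbered libraries. A correlation over all genes does not settle whether these libraries shared a sort or batch. The 8 thymocyte markers summed highest in replicate 1 of every medullary group, as in KO mTEChi with 168 against 77.6 and 69.1 CPM. In cTEC replicate 2 was the higher, with 96.5 against 66.1 CPM in WT and 151 against 81.0 CPM in KO. With the replicate number as a block, 1 keratin was called in cTEC KO against WT, 11 in KO cTEC against KO mTEChi and 1 for the difference of effects between cTEC and mTEClo. With 2 cTEC libraries per genotype, few 2-fold changes were recovered in simulated counts there, and keratins at few counts have wide errors.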
